A study of Homo sapiens with 6 samples.

Results

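Antioxidant enzymes are described here as a set of 35 genes: the peroxiredoxins and sulfiredoxin, the superoxide dismutases and catalase, the glutathione peroxidases, the thioredoxins and their reductases, the glutaredoxins, the methionine sulfoxide reductases, and a group of glutathione transferases. Members were taken by gene symbol from the deposited table of 61806 genes, in which all 35 were found. A mean of at least 1 FPKM over the 6 libraries (counts scaled to exon length and library total) was reached by 34 of them, the exception being GPX2, and these 34 were tested among 14254 genes. RNA was sequenced from Ishikawa cells, a long-established line of human endometrial adenocarcinoma: 3 from a derivative that overexpresses TEFM, the mitochondrial transcription elongation factor, and 3 labelled EV. The labels used here do not say how TEFM was introduced, whether either line is 1 clone, or what EV stands for. The title of the series places TEFM upstream of reactive oxygen species, the substrates of these enzymes.

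Superoxide, formed as a by-product of respiration and by oxidases, is turned into hydrogen peroxide by superoxide dismutases. Hydrogen peroxide is then removed by catalase, by glutathione peroxidases, which draw on glutathione, and by peroxiredoxins, which draw on thioredoxin. Both electron sources are reduced again with NADPH, by glutathione reductase and thioredoxin reductase. Many of these enzymes exist as a cytosolic form and a mitochondrial form encoded by separate genes, and several of the cytosolic forms are known targets of the transcription factor NRF2.

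The TEFM libraries held 14252668 to 17562807 counts and the EV libraries 15092555 to 17891047. TEFM itself stood at 23.6, 22.7 and 24 FPKM in the TEFM libraries, against 4.13, 4.24 and 4.55 FPKM in the EV libraries, so the labels held in every library. The groups parted on principal component 1, which held 58.4% of the variance. On component 2, which held 12.2%, EV replicate 3 stood apart at 22.5, against -12.9 to 10.2 for the other 5 libraries. Of 9 epithelial markers listed for this line, 8 were tested and 7 were higher in TEFM, where 21.7% of all tested genes, and 48.8% of those averaging at least 50 FPKM, were higher; ESR1, the estrogen receptor, was nearly absent at 0.00667 FPKM in TEFM and 0 FPKM in EV. Markers of immune, stromal, endothelial and red blood cells, 16 in all, summed to 2.48 to 3.63 FPKM in TEFM libraries and 2.31 to 2.82 FPKM in EV libraries, and DCN, MS4A1, CD3E and HBB were at 0 in all 6. Nothing in the labels says that replicates came from separate cultures, so p-values cover only the spread among these libraries, which may be technical.

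Of the 34 tested enzymes, 10 were higher in TEFM, 5 were lower and 19 did not pass (edgeR quasi-likelihood test, adjusted p under 0.05 over all tested genes). That is 44.1% of them, and 43.4% of all tested genes passed; for the higher side alone the figures were 29.4% of the enzymes and 21.7% of all genes. The share called in the set was near the background. Between groups, FPKM did not overlap for 18 enzymes, 10 with TEFM above and 8 with TEFM below, where 51.6% of all tested genes did not overlap, 21.1% with TEFM above and 30.5% with TEFM below. The median log2 fold change was 0.09 for the enzymes and 0.00 for all tested genes. In RNA from whole cultures, a change in the kinds of cells present and a change in RNA per cell cannot be told apart. Without EV replicate 3, 14 enzymes were higher and 6 lower; SOD2, PRDX3, GPX1 and SRXN1 joined the higher ones and TXNRD2 the lower ones.

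Counts by the place of the protein ran as follows, with no test of the difference between places; over all tested genes 21.7% were higher and 21.7% lower. Of 13 tested enzymes assigned to the cytosol, 6 were higher (GSTP1, PRDX1, PRDX2, TXNRD1, TXN and SOD1) and 1 was lower (TXNRD3), with a median log2 fold change of 0.21. Of 7 mitochondrial enzymes, 1 was higher (GLRX5) and 2 were lower (GLRX2 and MSRB2), with a median of -0.09, and 42.9% of them passed in either direction, near the 43.4% of all tested genes. With a filter at 5 FPKM, which leaves out both lower genes, the median was 0.09. With upper-quartile scaling, and likewise without EV replicate 3, 3 mitochondrial enzymes were higher. Without TEFM replicate 2 or 3, or with median-of-ratios scaling, robust dispersions or an offset for exonic size, 2 were higher. On the lower side, TXNRD2 also passed without EV replicate 3 and without composition scaling, and TXN2 with the offset for exonic size. The 6 enzymes found in more than 1 compartment held no higher gene and 1 lower gene, MGST1. Of the 7 secretory enzymes, in the endoplasmic reticulum or outside the cell, 3 were higher and 1 was lower. Summed over members, cytosolic transcripts reached 1140.4 ± 53.8 FPKM in TEFM and 873 ± 48.4 FPKM in EV (SD, n = 3), whereas mitochondrial ones stood at 152 ± 4.92 FPKM in TEFM and 152 ± 3.82 FPKM in EV. Without GSTP1 and PRDX1, taken out after their values were seen, the cytosolic sum was 667 ± 26.0 FPKM in TEFM and 594 ± 18.7 FPKM in EV.

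**Figure D1:**
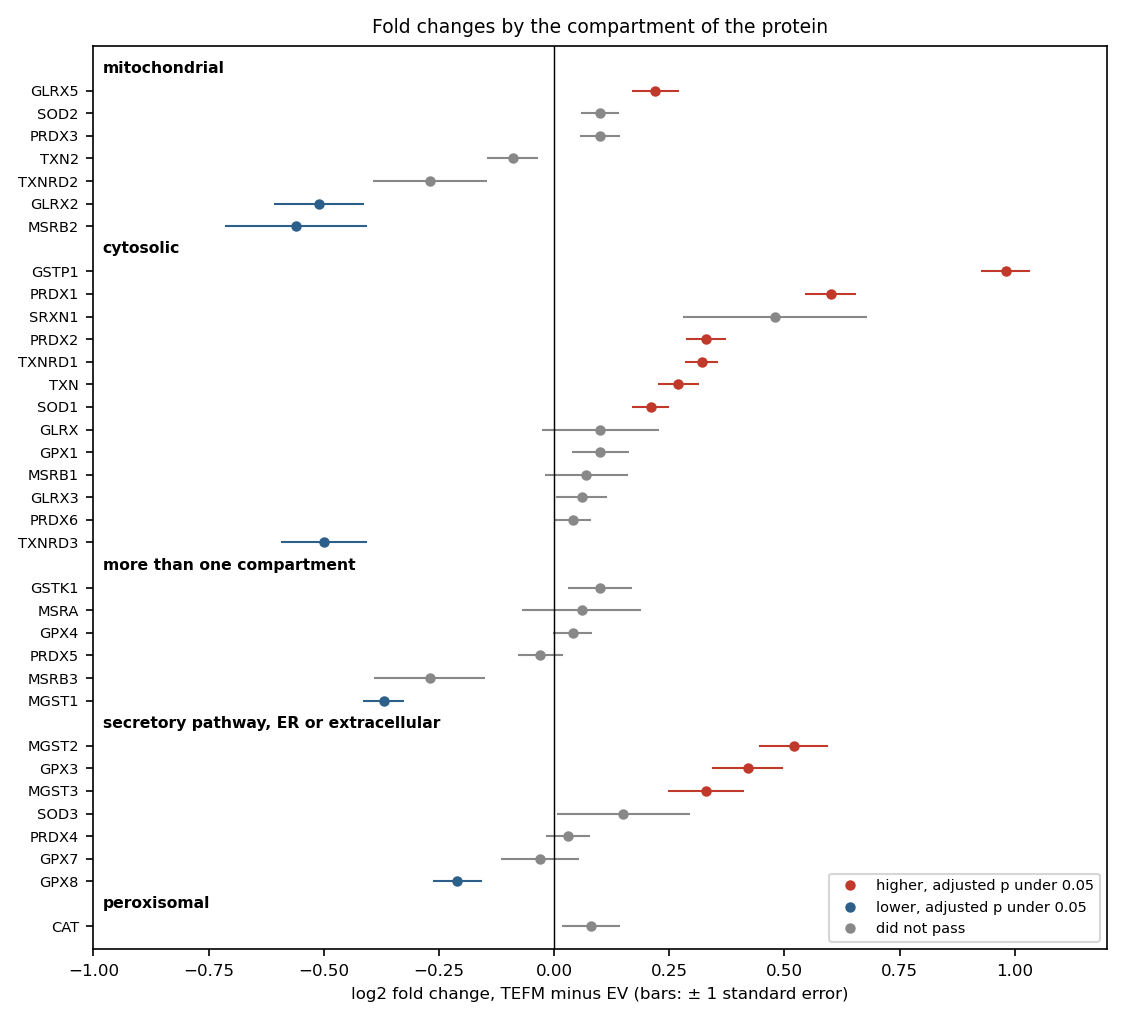
Log2 fold change (TEFM minus EV, with bars of 1 standard error) of the 34 tested enzymes, grouped by compartment; red is higher, blue lower and grey did not pass at an edgeR adjusted p of 0.05. Among the cytosolic enzymes 12 of 13 points lie right of 0, GSTP1 farthest at 0.98, while 4 of 7 mitochondrial points lie left of 0, MSRB2 farthest at -0.56.

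Level moved with this pattern. Of the 12 enzymes with a mean of at least 50 FPKM, 8 were cytosolic; 6 of the 12 were higher, all 6 of them cytosolic, and none was lower. Among all 683 tested genes at that level, 48.8% were higher and 15.5% lower in TEFM, against 21.7% each over all levels. Below 5 FPKM, 1 of 9 enzymes was higher and 2 were lower, where the shares of all genes were 14.5% and 17.8%. The part of expression level in the difference between compartments was not tested.

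**Figure D2:**
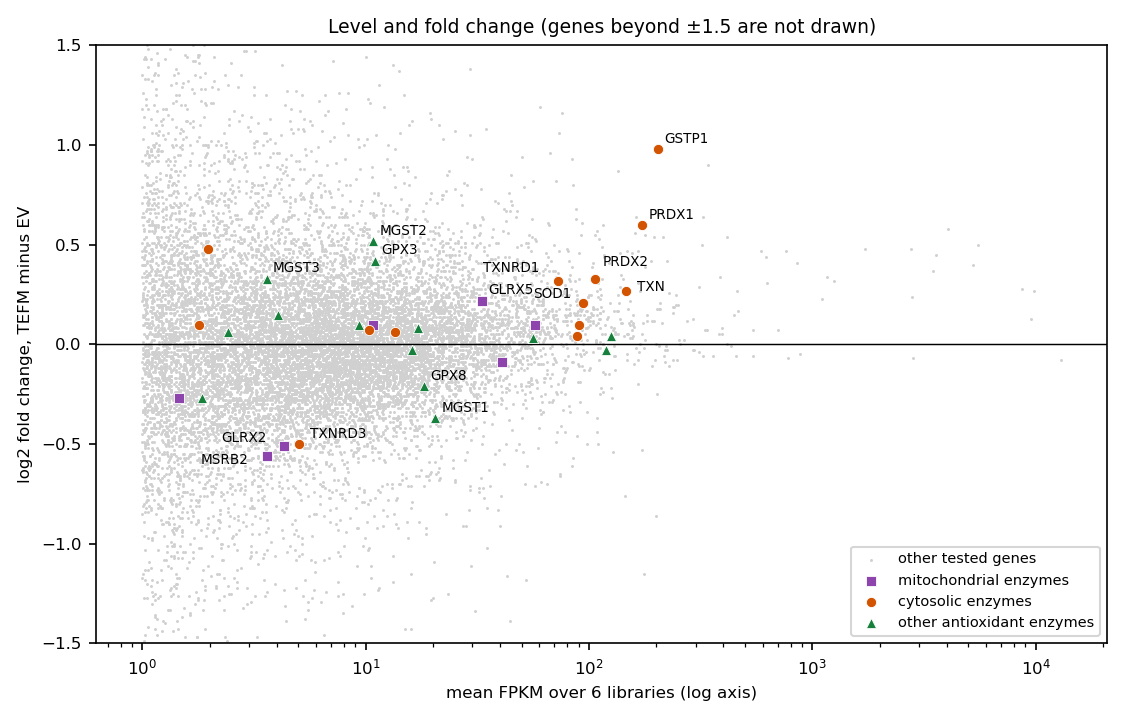
Log2 fold change (TEFM minus EV) against mean FPKM over the 6 libraries, on a log axis, for all tested genes within 1.5 of 0 (grey) and the antioxidant enzymes by compartment. The called cytosolic enzymes that were higher lie at 72.7 to 203 FPKM, and both called mitochondrial enzymes that were lower lie at 3.63 and 4.29 FPKM.

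Peroxiredoxins are abundant thiol peroxidases. PRDX1, the main cytosolic form, had 217, 196 and 205 FPKM in TEFM libraries, against 136, 126 and 157 FPKM in EV libraries. Every TEFM value lay above every EV value, a 1.52-fold rise (log2 fold change 0.60, standard error 0.0548, edgeR adjusted p = 2.81e-09). PRDX1 shares 24.9% of its exonic bases with MMACHC on the opposite strand, which had a log2 fold change of 0.20 and 3069 counts over the 6 libraries, against 28400 for PRDX1. The labels used here do not say if strand was recorded, so reads of the shared bases cannot be assigned. PRDX2, the second cytosolic form and one abundant in red blood cells, had 123, 114 and 113 FPKM in TEFM and 92.7, 91.6 and 101 FPKM in EV. It rose 1.26-fold, with no overlap between groups (edgeR adjusted p = 1.14e-06).

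The other peroxiredoxins did not pass. PRDX3, the mitochondrial peroxiredoxin, had 61.8, 56.0 and 58.0 FPKM in TEFM and 54.0, 55.9 and 58.9 FPKM in EV, and these ranges overlap (log2 fold change 0.10, standard error 0.0435, edgeR adjusted p = 0.0695). PRDX4 of the endoplasmic reticulum averaged 56.1 ± 0.746 FPKM in TEFM and 56.5 ± 2.95 FPKM in EV. PRDX5, sent to mitochondria, peroxisomes and cytosol, averaged 116 ± 6.12 FPKM in TEFM and 121 ± 0.755 FPKM in EV. PRDX6, which uses glutathione in place of thioredoxin, was at 88.4 FPKM in both groups (SD 2.05 in TEFM and 2.88 in EV, n = 3). SRXN1, the sulfiredoxin that repairs over-oxidised peroxiredoxins, had 2.86, 1.91 and 2.03 FPKM in TEFM and 1.66, 1.34 and 2.0 FPKM in EV. Its counts were only 73 to 122 in TEFM and 51 to 81 in EV, and its log2 fold change of 0.48 had a standard error of 0.200 (edgeR adjusted p = 0.0537). It passed in 5 of the 16 alternatives in which it was tested, among them the fit without EV replicate 3. A further gene, AL121758.1, covers 85% of its exonic bases on the same strand and had 20 counts over the 6 libraries.

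In the thioredoxin system, the main cytosolic genes rose and the mitochondrial ones did not pass. TXN, cytosolic thioredoxin, had 164, 154 and 159 FPKM in TEFM libraries and 132, 130.0 and 144 FPKM in EV libraries, a 1.21-fold rise with no overlap (edgeR adjusted p = 2.81e-05). TXNRD1, the selenoenzyme that reduces it, had 82.7, 78.0 and 78.8 FPKM in TEFM and 65.9, 65.0 and 65.6 FPKM in EV. This was a 1.25-fold rise (log2 fold change 0.32, standard error 0.0357, edgeR adjusted p = 6.65e-08), and TXNRD1 had the tightest EV values of the thioredoxin genes relative to their mean.

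TXN2, mitochondrial thioredoxin, had 40.5, 39.6 and 37.0 FPKM in TEFM, all below the 41.4, 42.6 and 44.0 FPKM in EV, but did not pass (log2 fold change -0.09, standard error 0.0554, edgeR adjusted p = 0.218). TXNRD2, its reductase, had 1.27, 1.39 and 1.25 FPKM in TEFM and 1.74, 1.70 and 1.41 FPKM in EV, again without overlap and without passing (log2 fold change -0.27, edgeR adjusted p = 0.0821). TXNRD2 passed as lower without EV replicate 3 and without composition scaling. TXN2 passed as lower only with the offset for exonic size (edgeR adjusted p = 0.0311). TXNRD3, a reductase known mainly from testis, fell to 4.16, 4.07 and 4.08 FPKM in TEFM, against 5.89, 6.29 and 5.73 FPKM in EV (log2 fold change -0.50, standard error 0.0936, edgeR adjusted p = 0.000116).

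**Figure D3:**
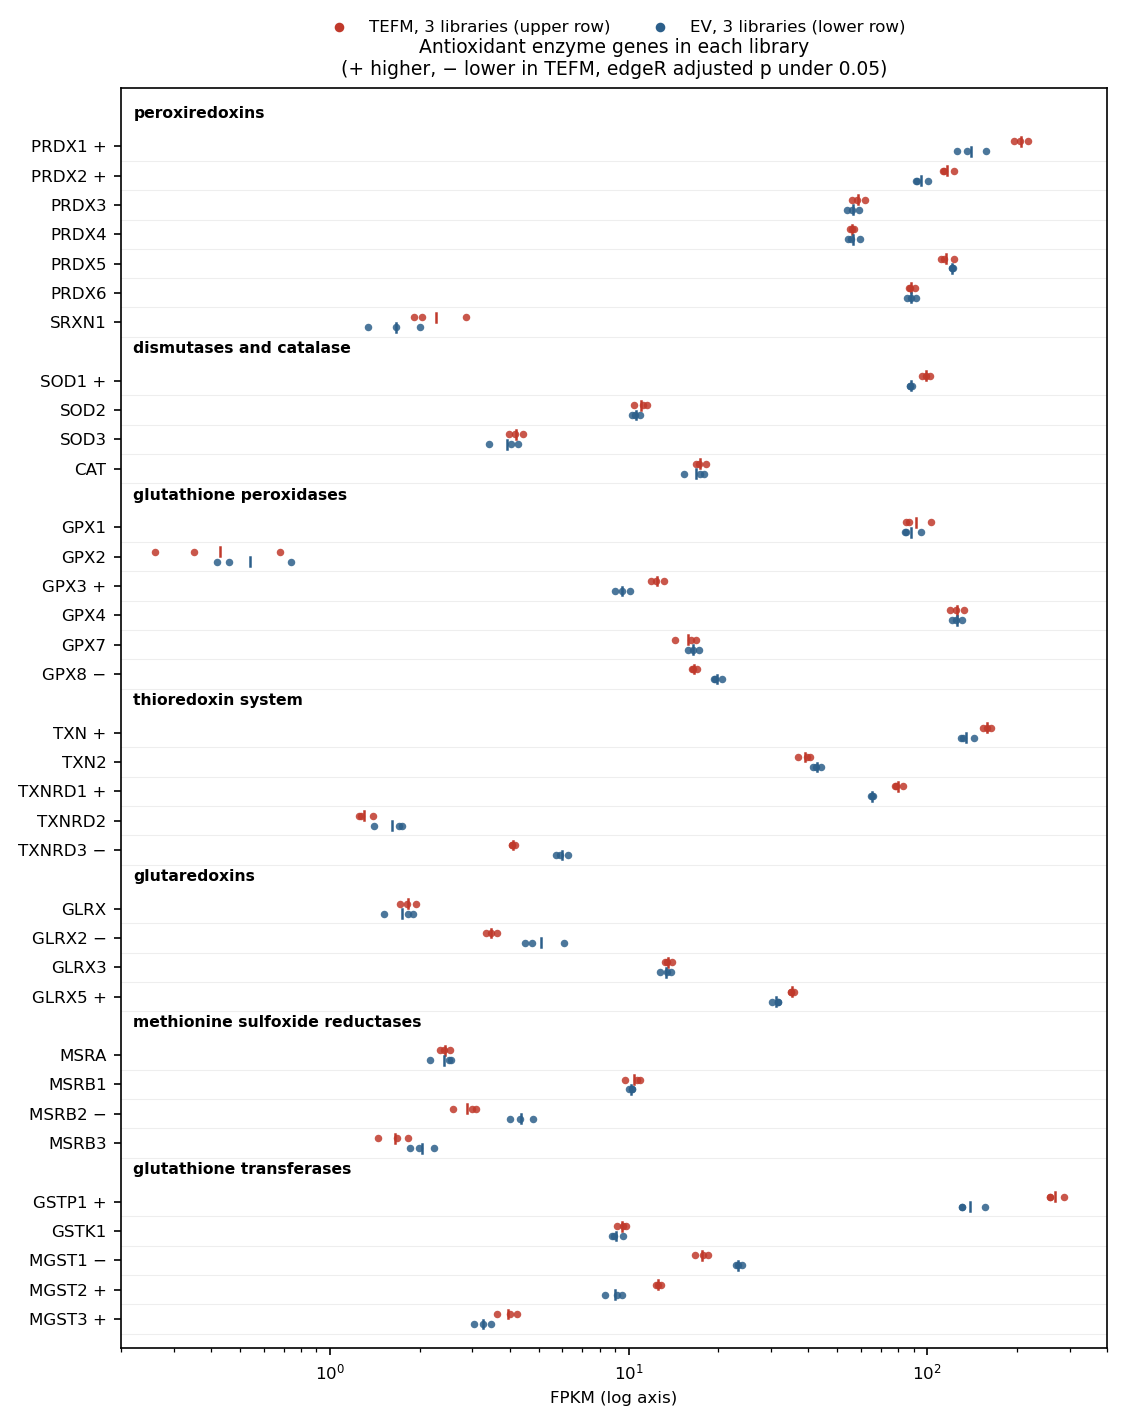
FPKM of all 35 enzymes in each library on a log axis, by family, with TEFM libraries (red) above EV libraries (blue) and vertical ticks at the group means. GSTP1 and PRDX1 show the widest separation among the abundant genes, and GPX2 lies below 1 FPKM in every library.

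Glutathione transferases held the largest change of the set. GSTP1, a cytosolic enzyme that joins glutathione to electrophiles, had 288, 257 and 257 FPKM in TEFM libraries, against 131, 131 and 156 FPKM in EV libraries. The groups lay far apart, a 1.97-fold rise (log2 fold change 0.98, standard error 0.0535, edgeR adjusted p = 2.9e-13), and GSTP1 had the highest mean level of the 35. It lies on chromosome 11 (67583742 to 67586656, plus strand), in a stretch from 60 to 70 Mb whose 203 tested genes had a median log2 fold change of 0.20; PRDX5, in the same stretch, had -0.03. The part of that stretch in the change of GSTP1 was not tested.

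The membrane-bound members moved in both directions. MGST2, which also makes leukotriene C4, had 12.8, 12.6 and 12.4 FPKM in TEFM and 9.53, 9.15 and 8.35 FPKM in EV, a 1.44-fold rise (edgeR adjusted p = 4.16e-06). MAML3, which fell (log2 fold change -0.46), covers 7.92% of MGST2 exonic bases on the opposite strand and had 1325 counts, against 3352 for MGST2. MGST3 had 4.01, 4.24 and 3.63 FPKM in TEFM and 3.05, 3.25 and 3.47 FPKM in EV (1.26-fold, edgeR adjusted p = 0.00235). MGST1, of the endoplasmic reticulum and outer mitochondrial membrane, fell to 17.7, 16.7 and 18.4 FPKM in TEFM, against 23.9, 22.9 and 23.2 FPKM in EV. This was a log2 fold change of -0.37 (standard error 0.0451, edgeR adjusted p = 3.1e-07). None of these 3 showed overlap between groups. GSTK1, of mitochondria and peroxisomes, averaged 9.52 ± 0.326 FPKM in TEFM and 9.10 ± 0.399 FPKM in EV and did not pass.

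NRF2 is known to bind antioxidant response elements, whose core reads TGACNNNGC. The RefSeq promoter table (GRCh38.p14, 250 bases before to 50 after each start) held windows for 28 of the 35 genes, and both strands were searched. The core was found for 4 of the 28 (14.3%), namely GSTP1, TXNRD1, MGST1 and GPX2, against 16.1% of all 27305 genes in the table. By call, it was held by 2 of 7 higher enzymes with a window, 1 of 5 lower ones, 0 of 15 that did not pass, and GPX2. PRDX1, PRDX6, SOD1, TXN2, GLRX3, MSRA and MGST2 had no window and were not searched. Among these, PRDX1, SOD1 and MGST2 were higher in TEFM. The windows of GSTP1 and TXNRD1 are shown because both genes rose; TXNRD1 has 2 annotated starts. Capitals mark the core. In GSTP1 it begins 66 bases before the start, in the first TXNRD1 window 99 bases before it with a further match on the opposite strand, and in the second window 102 bases before it on the opposite strand. A match in letters does not show that a factor binds there.
GSTP1 (chr11:67583562-67583861, plus strand): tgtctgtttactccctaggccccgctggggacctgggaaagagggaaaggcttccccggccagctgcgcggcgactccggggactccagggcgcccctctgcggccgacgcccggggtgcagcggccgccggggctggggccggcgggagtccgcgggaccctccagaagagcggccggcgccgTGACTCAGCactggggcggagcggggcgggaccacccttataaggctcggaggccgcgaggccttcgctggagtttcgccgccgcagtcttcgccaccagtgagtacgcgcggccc
TXNRD1 first start (chr12:104215529-104215828, plus strand): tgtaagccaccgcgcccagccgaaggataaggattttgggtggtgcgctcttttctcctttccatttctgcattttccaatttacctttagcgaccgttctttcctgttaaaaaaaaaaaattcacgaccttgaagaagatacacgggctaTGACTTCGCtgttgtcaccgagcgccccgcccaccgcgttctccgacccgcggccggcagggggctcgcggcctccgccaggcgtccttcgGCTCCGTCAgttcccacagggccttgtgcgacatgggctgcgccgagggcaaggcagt
TXNRD1 second start (chr12:104286782-104287081, plus strand): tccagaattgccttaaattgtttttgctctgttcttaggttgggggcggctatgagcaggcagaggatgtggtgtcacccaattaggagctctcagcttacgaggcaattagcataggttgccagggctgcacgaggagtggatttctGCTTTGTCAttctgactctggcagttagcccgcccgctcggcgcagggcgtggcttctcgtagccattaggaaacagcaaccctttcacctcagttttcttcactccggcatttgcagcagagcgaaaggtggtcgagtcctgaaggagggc

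Among enzymes that handle superoxide and its product, SOD1 changed. SOD1, the copper-zinc dismutase of the cytosol, had 99.3, 96.4 and 102 FPKM in TEFM libraries and 87.9, 89.0 and 87.4 FPKM in EV libraries, a 1.16-fold rise without overlap (edgeR adjusted p = 0.000142). SOD2, the manganese dismutase of the mitochondrial matrix, had 11.5, 11.2 and 10.4 FPKM in TEFM and 10.3, 10.5 and 10.9 FPKM in EV. Its ranges overlap and it missed the threshold narrowly (log2 fold change 0.10, standard error 0.0419, edgeR adjusted p = 0.0518); it passed as higher in 6 of 17 alternatives. FPKM divides by every annotated exonic base, 18144 for SOD2 and 1975 for SOD1, so the gap between their levels depends on that annotation. In counts the genes were close, with 2696 to 3570 for SOD2 and 2868 to 3345 for SOD1 in TEFM, and 2871 to 3360 for SOD2 and 2654 to 3105 for SOD1 in EV. SOD3, the secreted dismutase, averaged 4.21 ± 0.231 FPKM in TEFM and 3.91 ± 0.445 FPKM in EV. CAT, peroxisomal catalase, averaged 17.4 ± 0.712 FPKM in TEFM and 16.9 ± 1.34 FPKM in EV, and neither passed.

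Of the glutathione peroxidases, the secreted form rose and 1 form of the endoplasmic reticulum fell. GPX3, the plasma glutathione peroxidase, had 12.4, 11.9 and 13.1 FPKM in TEFM libraries and 9.5, 9.04 and 10.1 FPKM in EV libraries, a 1.34-fold rise (edgeR adjusted p = 7.97e-05). GPX3 lies on chromosome 5 between 150 and 160 Mb, where 43 tested genes had a median log2 fold change of 0.20. GPX8 fell to 16.5, 17 and 16.3 FPKM in TEFM, against 19.3, 20.5 and 19.5 FPKM in EV (log2 fold change -0.21, standard error 0.0526, edgeR adjusted p = 0.00202). Neither gene overlapped between groups.

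GPX1, the most widespread cytosolic form, had 103, 84.7 and 87.0 FPKM in TEFM and 84.0, 84.8 and 95.5 FPKM in EV, with 1 high library in each group. It did not pass (edgeR adjusted p = 0.226). GPX4, which reduces lipid peroxides and guards against ferroptosis, averaged 125 ± 7.06 FPKM in TEFM and 126 ± 4.85 FPKM in EV, with a log2 fold change of 0.04 and a standard error of 0.0427. GPX7 of the endoplasmic reticulum averaged 15.8 ± 1.30 FPKM in TEFM and 16.5 ± 0.740 FPKM in EV. GPX2, an epithelial form of the gut, had 5 to 16 counts in TEFM libraries and 9 to 15 counts in EV libraries and was too low to test.

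Glutaredoxins reduce protein disulfides bound to glutathione or carry iron-sulfur clusters, and the mitochondrial pair moved apart. GLRX2 fell to 3.47, 3.62 and 3.34 FPKM in TEFM, against 4.51, 6.06 and 4.75 FPKM in EV, where replicate 2 was high. The fall was 0.703-fold in linear terms (log2 fold change -0.51, standard error 0.0976, edgeR adjusted p = 0.000154). GLRX2 also has transcripts for forms outside mitochondria, which gene-level counts do not separate, and RO60 on the opposite strand covers 7.75% of its exonic bases. RO60 had more counts over the 6 libraries, 6274 against 2598 for GLRX2, and a log2 fold change of -0.13. GLRX5, needed for iron-sulfur cluster assembly, had 35.7, 34.9 and 35.1 FPKM in TEFM and 31.6, 30.2 and 31.7 FPKM in EV (1.16-fold, edgeR adjusted p = 0.00121). SNHG10, an antisense RNA gene with a log2 fold change of 0.74 and 1046 counts over the 6 libraries, covers 13.7% of GLRX5 exonic bases, and GLRX5 had 7752 counts. The cytosolic GLRX averaged 1.83 ± 0.116 FPKM in TEFM and 1.75 ± 0.200 FPKM in EV, and GLRX3 13.5 ± 0.411 FPKM in TEFM and 13.4 ± 0.630 FPKM in EV; neither passed.

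Methionine sulfoxide reductases repair oxidised methionine, and 1 of 4 changed. MSRB2, the mitochondrial form, fell to 2.99, 2.59 and 3.08 FPKM in TEFM, against 4.32, 4.79 and 4.0 FPKM in EV. Its log2 fold change of -0.56 (standard error 0.154, edgeR adjusted p = 0.00473) was the lowest of the set, on 87 to 100 counts in TEFM and 127 to 153 counts in EV. MSRB3, with forms for the endoplasmic reticulum and mitochondria, had 1.45, 1.68 and 1.83 FPKM in TEFM, all below the 2.24, 1.86 and 1.99 FPKM in EV, and did not pass (edgeR adjusted p = 0.081). MSRB1, a cytosolic selenoprotein, averaged 10.4 ± 0.624 FPKM in TEFM and 10.2 ± 0.165 FPKM in EV. MSRA averaged 2.43 ± 0.0902 FPKM in TEFM and 2.41 ± 0.215 FPKM in EV.

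Set against the cytosolic counterpart chosen for it within each library, every mitochondrial gene of 6 pairs had a lower ratio in TEFM. GLRX5, the mitochondrial enzyme called higher, was in no pair. TXNRD3, the cytosolic reductase that fell, was not used as a partner. Ratios with other partners were not computed. TXNRD3 fell further (log2 fold change -0.50) than TXNRD2 (-0.27), and GLRX5 rose (0.22) where cytosolic GLRX3 stood at 0.06. By these values, TXNRD2 to TXNRD3 and GLRX5 to GLRX3 would go the other way. The common direction thus holds only for the pairs chosen, and they were chosen with earlier results of these data known. Ratios of FPKM from 1 library do not depend on scaling between libraries. SOD2 to SOD1 was 0.116, 0.116 and 0.102 in TEFM and 0.118, 0.118 and 0.125 in EV, groups that do not overlap but lie close together. PRDX3 to PRDX1 was 0.284, 0.286 and 0.283 in TEFM, against 0.397, 0.445 and 0.375 in EV. TXN2 to TXN was 0.247, 0.258 and 0.232 in TEFM, against 0.314, 0.328 and 0.306 in EV. These last 2 pairs stood apart most clearly for their spread, with log2 changes of -0.51 (pooled SD 0.0891) for PRDX3 to PRDX1 and -0.36 (pooled SD 0.0653) for TXN2 to TXN.

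TXNRD2 to TXNRD1 averaged 0.0163 ± 0.00130 in TEFM and 0.0247 ± 0.00276 in EV (SD, n = 3). GLRX2 to GLRX averaged 1.91 ± 0.172 in TEFM and 2.99 ± 0.871 in EV. MSRB2 to MSRB1 averaged 0.278 ± 0.0368 in TEFM and 0.427 ± 0.0340 in EV. The groups did not overlap for any of the 6 pairs, including SOD2 to SOD1, whose log2 change was only -0.11 with a pooled SD of 0.0806. No share was computed for ratios of other genes. For single genes, FPKM of the groups did not overlap for 51.6% of all tested genes. The partners SOD1, PRDX1, TXN and TXNRD1 averaged at least 50 FPKM, a level at which 48.8% of all tested genes were higher. The part of that level in the ratios was not tested. An exact two-sided permutation test gave p = 0.1 for each pair, the smallest that 3 against 3 libraries allow, and 0.1 after Benjamini-Hochberg adjustment over the 6. In the SOD, PRDX, TXN and TXNRD pairs the cytosolic gene rose and the mitochondrial gene did not pass, whereas in the GLRX and MSRB pairs the mitochondrial gene fell and the cytosolic gene did not pass.

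**Figure D4:**
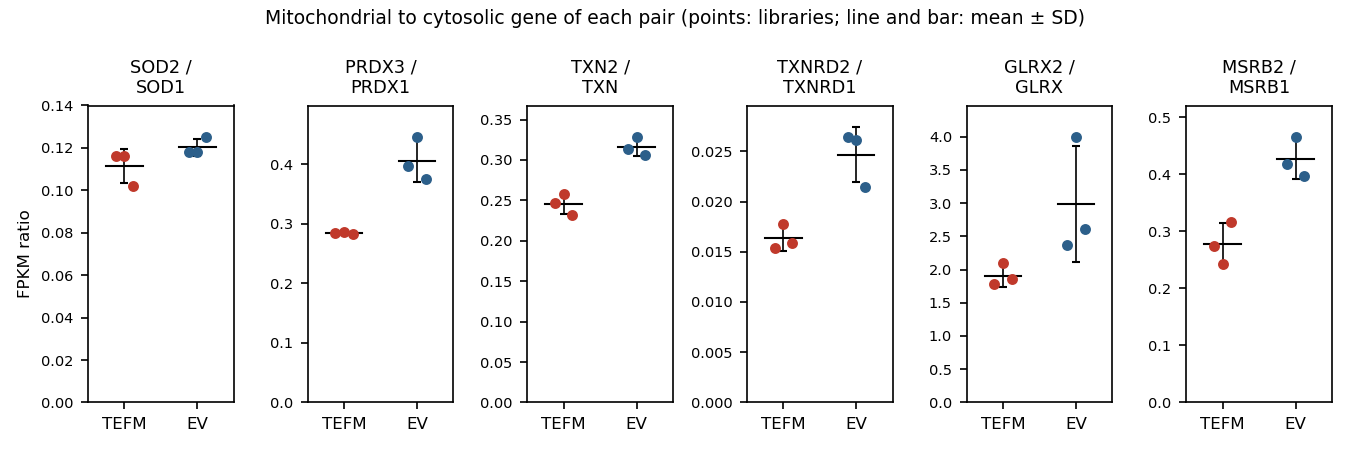
FPKM ratio of the mitochondrial to the cytosolic gene in each library for 6 enzyme pairs, TEFM left and EV right, with means and SD (n = 3) and axes that start at 0. In all 6 panels the 3 TEFM points lie below the 3 EV points, closely for SOD2 to SOD1 (0.102 to 0.116 against 0.118 to 0.125) and widely for PRDX3 to PRDX1.

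The enzymes depend on supplies of NADPH and glutathione. A list of NADPH supply held dehydrogenases that can make NADPH, the NAD kinases that make its precursor, and neighbouring enzymes of the folate and pentose phosphate pathways. Of its 17 tested genes, 12 were lower, none was higher and 5 did not pass, where 21.7% of all genes were lower and 21.7% higher. The median log2 fold change was -0.18. MTHFD2, a folate enzyme of mitochondria, averaged 20.4 ± 1.05 FPKM in TEFM and 37.3 ± 1.51 FPKM in EV. The isocitrate dehydrogenases fell in both compartments: mitochondrial IDH2 averaged 25.5 ± 0.463 FPKM in TEFM and 33.6 ± 1.07 FPKM in EV, and cytosolic IDH1 46.4 ± 0.884 FPKM in TEFM and 56.9 ± 1.40 FPKM in EV. MTHFD1L, the mitochondrial formate-tetrahydrofolate ligase, which does not itself make NADPH, had a log2 fold change of -0.32. Several of these genes are also known ATF4 targets. The list was made with earlier results of these data known, so its direction is no independent finding.

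Of 16 tested genes of glutathione supply, 3 were higher, 7 lower and 6 did not pass, against 21.7% of all genes in each direction, with a median log2 fold change of -0.17. GSR, glutathione reductase, stood at 107 ± 0.429 FPKM in TEFM and 68.6 ± 1.05 FPKM in EV (log2 fold change 0.68), a rise alongside TXNRD1, the reductase of the other system. The cystine importer genes fell together, SLC7A11 to 65.5 ± 6.68 FPKM in TEFM, against 103 ± 4.27 FPKM in EV, and SLC3A2 to 22.8 ± 1.40 FPKM in TEFM, against 34.0 ± 0.693 FPKM in EV. CHAC1, which degrades glutathione, had a log2 fold change of -1.70. This list too was chosen with earlier results of these data known, so its direction is no independent finding.

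Among 27 tested partners and regulators of thioredoxin, 5 were higher and 7 lower, a share called of 44.4% that was near the 43.4% over all genes. TXNIP, the inhibitor that binds reduced thioredoxin, had 42.1, 50.9 and 47.5 FPKM in TEFM libraries, against 141, 178 and 113 FPKM in EV libraries (log2 fold change -1.58, standard error 0.0958, edgeR adjusted p = 1.91e-12). NXN, nucleoredoxin, averaged 12.3 ± 0.201 FPKM in TEFM and 6.16 ± 0.189 FPKM in EV. The sestrin genes SESN2 and SESN3, stress-induced and linked to peroxiredoxin repair, had log2 fold changes of -1.43 and -0.79. In the NRF2 control list, 5 of 11 tested genes were higher and 3 lower, against 21.7% of all genes in each direction, but 3 were higher without TEFM replicate 1, EV replicate 1 or EV replicate 2. NFE2L2, which encodes NRF2, averaged 7.61 ± 0.257 FPKM in TEFM and 10.6 ± 0.523 FPKM in EV, and SQSTM1, which sequesters the NRF2 inhibitor KEAP1, 25.7 ± 1.39 FPKM in TEFM and 20.0 ± 1.26 FPKM in EV. RNA levels do not measure NRF2 activity.

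Selenoproteins among the enzymes, 8 in all and grouped after their values were seen, held 2 higher (GPX3 and TXNRD1) and 1 lower gene (TXNRD3) of 7 tested. Of 14 tested genes for selenoprotein synthesis, 2 were higher and 7 lower, against 21.7% of all genes in each direction, with 1 higher when TEFM replicate 2 or 3 or EV replicate 1 or 2 was left out. SEPSECS, which makes selenocysteyl-tRNA, averaged 2.20 ± 0.222 FPKM in TEFM and 3.90 ± 0.570 FPKM in EV. Genes of oxidant-producing oxidases showed no common direction, with 5 of 13 tested higher and 4 lower, against 21.7% of all genes in each direction. LOX, the lysyl oxidase that cross-links collagen, averaged 3.09 ± 0.119 FPKM in TEFM and 5.10 ± 0.291 FPKM in EV. NOXA1, an activator of NADPH oxidase, averaged 5.70 ± 0.668 FPKM in TEFM and 9.97 ± 1.14 FPKM in EV. MAOA, a monoamine oxidase of mitochondria, had a log2 fold change of -0.53 and ERO1B, an oxidase of the endoplasmic reticulum, one of 0.53. Of 9 tested transferases outside the set, 2 were higher and 1 lower, against 21.7% of all genes in each direction, the number lower being 0 without TEFM replicate 2 and 2 without TEFM replicate 3 or EV replicate 1. GSTM4, one of a family of near-identical genes whose reads can be shared, averaged 3.64 ± 0.218 FPKM in TEFM and 1.2 ± 0.110 FPKM in EV. Neither oxidants nor enzyme activities were measured.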

How the data were processed

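RNA-seq of poly(A)-selected RNA was analysed from 3 TEFM and 3 EV libraries. The deposited table gives whole-number counts and FPKM per gene, per the file headers; FPKM recomputed from the counts, the exonic gene size and the column total differed by at most 0.005. Per the submitters' processing notes, cutadapt 1.9.1 was used and the build was hg19; the sources used here give neither aligner nor counting tool. The coordinates match GRCh38: 58254 gene IDs were also in GENCODE v29, and 99.9% of these lay at overlapping positions. The printed gene positions are the deposited ones.

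Genes averaging at least 1 FPKM were tested with edgeR 4.0.16 (quasi-likelihood F test, TMM scaling, R 4.3.3) on the deposited counts, two-sided, with Benjamini-Hochberg adjustment over 14254 genes and a threshold of 0.05. Standard errors come from the F statistic. TMM factors were 0.982 to 1.02. Exact permutation tests used scipy 1.17.1. No pair of libraries agreed within sampling noise: the chi-square statistic divided by its degrees of freedom lay between 2.09 and 3.91 for pairs of the same group. Overlaps with other genes come from GENCODE v29.

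Members, compartments, pairs and lists were chosen with earlier results of these data known, so their counts and directions are no independent findings. Every enzyme is named, and 1 to 4 genes of each pathway list, taken in order of p from the smallest. Alternatives covered scaling, filters, DESeq2 1.42.0, limma 3.58.1, robust dispersions, a block for replicate number and leaving out each library; an offset for exonic size was added after seeing the data.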

Additional observations from a re-analysis of the deposited data

How the results depend on the processing

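The 15 calls of enzymes, 10 higher and 5 lower, held in each of the alternatives in which the gene was tested (16 or 17). The numbers higher and lower ran from 10 to 14 and from 5 to 6 with a library left out; with a mean FPKM of at least 5 they were 9 and 3, because fewer genes were tested, and 2046 of all genes were then higher. With library totals alone 2576 of all genes were higher and 3679 lower. The median of mitochondrial enzymes was 0.09 at a mean FPKM of at least 5, where the genes that fell were not tested, -0.15 with the offset for exonic size and -0.03 with enzymes of several compartments added; the cause of the shift with the offset was not tested. The 6 pair ratios stayed below 0 on the log2 scale in the alternatives run, SOD2 to SOD1 between -0.14 and -0.05. Among the other lists, oxidases had 9 higher with no filter on low values, 2 higher and 2 lower with the filter at 5 FPKM, and 3 higher with limma. In the NRF2 control list limma gave 3 higher, and selenoprotein synthesis had 1 higher with DESeq2, with no filter and without composition scaling, and 4 lower with that filter. The transferases outside the set had 3 lower without composition scaling.

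Apart from that median at 5 FPKM, the changes of sign were in enzymes that did not pass. PRDX4 was at -0.01 without composition scaling and with limma at both pseudocounts, and -0.03 with the size offset. PRDX6 was at -0.00 in the same 4 settings. GPX4 was at -0.00 in the first 3 and -0.02 with the offset. With 1 library left out, values ran from -0.01 to 0.07 for GPX4 (reversed without TEFM replicate 1), from -0.07 to 0.00 for PRDX5 (without TEFM replicate 3), from -0.08 to 0.03 for GPX7 (without TEFM replicate 2, and 0.01 without EV replicate 1) and from -0.01 to 0.09 for MSRA (without EV replicate 1). The causes were not tested.

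Same-numbered libraries showed no shared deviation (correlations of -0.0343, 0.0278 and -0.0227), which cannot tell whether they were prepared together. With the replicate block 11 enzymes were higher and 5 lower, SRXN1 being added. Counts per library of 51 to 122 for SRXN1 and 87 to 153 for MSRB2 limit the precision of both.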
